A study of Mus musculus with 24 samples.

Results

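The 10 genes described here carry glucose into mouse embryonic stem cells (ESCs) and convert it to lactate: the glucose transporters Slc2a1 and Slc2a3 and the enzymes Hk2, Pfkl, Aldoa, Tpi1, Pgk1, Eno1, Pkm and Ldha. They were chosen by symbol, and all 10 were found among the 54242 symbols of the table and passed the filter on low values together with 16447 genes in all. RNA-seq was performed on 24 libraries, 3 in each of 8 groups, of CGR8, a mouse ESC line. Cells labelled ESC were kept in serum and LIF and are called day 0, and cells labelled DIF were collected after 4 days of 10 nM retinoic acid (RA) and are called day 4. At each day, cells received a pool of non-targeting siRNAs (si-CTL) or of siRNAs against Rsl24d1 (si-Rsl24d1), a factor in the assembly of the large ribosomal subunit. Each was done without rescue (labelled nores, empty_vector, no doxycycline) or with rescue (labelled RESCUE, RSL24D1_OE, with doxycycline). The rescue line was made by transposon transfection and puromycin selection and carries a doxycycline-inducible Rsl24d1 that the siRNAs do not target. By these labels the vector and doxycycline changed together and cannot be told apart. For its polysome profiles the paper instead describes cells without rescue as the rescue line kept without doxycycline. Which of these holds for the RNA-seq libraries is not settled by the values. The question behind these comparisons was how the ESC programme responds when Rsl24d1 is lowered, in self-renewal and in early differentiation.

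Pluripotent stem cells rely heavily on glycolysis. Glucose enters by facilitated transport, is trapped by phosphorylation, is split into triose phosphates and is oxidised to pyruvate, which lactate dehydrogenase reduces to lactate so that the pathway can keep running. Several steps have more than one isozyme, and the mix of isozymes differs between cell types and between stages of differentiation.

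In day 0 si-CTL cells the members were among the well expressed transcripts, and their order was compared per length, in TPM (a share of all transcripts corrected for length), the unit behind the deposited log2(TPM + 1) values. Pkm, a pyruvate kinase and the enzyme of the last step to pyruvate, stood highest at 1943 ± 35.2 TPM (SD, n = 3 in every group). Aldoa, the aldolase that splits fructose bisphosphate, followed at 1408 ± 32.4 TPM and Ldha, the muscle-type lactate dehydrogenase subunit, at 1242 ± 10.9 TPM. Pgk1, the kinase of the first ATP-forming step, reached 767 ± 20.8 TPM, Eno1, an enolase, 658 ± 4.47 TPM and Tpi1, the triose phosphate isomerase, 363 ± 5.01 TPM. The transporters were close to Tpi1, with Slc2a3, the high-affinity neuronal-type transporter, at 354 ± 24.2 TPM and Slc2a1, the basal transporter of most cells, at 269 ± 15.0 TPM. The enzymes that commit glucose to the pathway were lowest: Pfkl, the liver-type phosphofructokinase, at 146 ± 8.72 TPM and Hk2, the inducible hexokinase, at 62.8 ± 0.882 TPM. The neighbours Tpi1 and Slc2a3 did not differ beyond their spread. Summed, the 10 genes held 7213 ± 77.5 TPM, or 0.721% of all transcripts. The place of Eno1 in this order and the sum depend on how reads were split between Eno1 and the near-identical Eno1b. Eno1b is not a member and was listed apart at 1590 ± 22.9 TPM.

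Promoter windows from RefSeq were matched for 9 of the 10 members, 15 windows in all, each from 250 bases before to 50 bases after a transcription start (build GRCm38.p6). ACGTG, the core of the sequence recognised by hypoxia-inducible factors (HIF) and part of the E-box CACGTG, was searched on both strands. It was present in 7 of the 15 windows, of 6 members, against 19.6% of the 32851 windows of the same length. The 15 windows are not all distinct. Aldoa windows 2 and 3 overlap and hold the same ACGTG, counted in both, and Eno1 windows 2 and 3 overlap too. CACGTG, which contains ACGTG, was present in 1 window, of Ldha, against 7.15% of all windows. GGGCGG, the core of the GC box, was present in 11 windows, of 9 members, against 35.7% of all windows. The windows of Slc2a1 (chr4:119108495-119108794, plus strand), Pgk1 (chrX:106186850-106187149, plus strand) and Ldha (chr7:46845554-46845853, plus strand) are printed 5′ to 3′ because these 3 members responded to si-Rsl24d1 with different directions or sizes, with every ACGTG of either strand in capitals.
Slc2a1: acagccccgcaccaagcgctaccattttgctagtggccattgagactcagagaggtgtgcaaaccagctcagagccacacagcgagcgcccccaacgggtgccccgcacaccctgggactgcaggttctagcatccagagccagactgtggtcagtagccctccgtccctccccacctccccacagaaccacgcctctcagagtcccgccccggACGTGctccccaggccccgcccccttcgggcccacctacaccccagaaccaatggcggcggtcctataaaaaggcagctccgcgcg
Pgk1: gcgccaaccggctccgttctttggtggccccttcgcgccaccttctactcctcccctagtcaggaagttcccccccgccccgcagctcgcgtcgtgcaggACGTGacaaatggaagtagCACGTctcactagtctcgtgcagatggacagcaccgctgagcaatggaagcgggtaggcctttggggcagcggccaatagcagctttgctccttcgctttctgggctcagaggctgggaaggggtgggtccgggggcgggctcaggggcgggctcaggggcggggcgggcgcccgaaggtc
Ldha: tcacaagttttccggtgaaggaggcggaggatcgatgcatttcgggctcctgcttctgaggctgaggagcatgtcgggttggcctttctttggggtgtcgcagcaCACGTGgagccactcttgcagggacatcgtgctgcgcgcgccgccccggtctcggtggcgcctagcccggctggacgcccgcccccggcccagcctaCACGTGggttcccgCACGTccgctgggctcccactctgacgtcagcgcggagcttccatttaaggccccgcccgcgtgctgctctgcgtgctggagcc
The match in Slc2a1 begins 36 bases before the start. The Pgk1 window holds 2 matches and the Ldha window 5, of which 4 lie, overlapping, in its 2 copies of CACGTG. A match describes these letters and is no evidence of a bound site.

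Rsl24d1 itself was read first, as the check of the labels. In day 0 cells without rescue it measured 7.22, 7.14 and 7.10 log2(TPM + 1) in the si-CTL libraries and 5.23, 5.28 and 5.07 in the si-Rsl24d1 libraries, a difference of -1.95 (standard error, SE, 0.07, limma adjusted p = 3.2e-14). With rescue the day 0 difference was smaller, at -0.50 (SE 0.07, limma adjusted p = 2.2e-05). At day 4 without rescue the libraries labelled si-Rsl24d1 measured 6.50, 6.61 and 6.65 against 6.60, 6.67 and 6.61 in si-CTL, so the groups overlapped and the difference of -0.04 did not pass (limma adjusted p = 0.66). With rescue at day 4 they measured 7.07, 7.05 and 7.00 against 6.99, 6.84 and 6.85 (difference 0.15, limma adjusted p = 0.19). Every day 4 result below therefore compares libraries by their siRNA label, at a time when the measured Rsl24d1 level was not lower. With rescue, that level cannot separate the endogenous transcript from the doxycycline-induced one.

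Libraries of 1 group correlated at 0.985 or more over the genes tested, and no pair of libraries was identical. All 10 ESC markers examined were expressed in every group, also at day 4. The summed level of 14 RA response and early differentiation markers was at most 50.4 TPM per library at day 0 and 71.3 to 124 TPM at day 4. Neither list moved as 1 group from day 0 to day 4 in si-CTL cells without rescue. At a limma adjusted p below 0.01, 8 ESC markers were lower and 2, Nanog and Dppa5a, higher. Of 12 tested markers of the RA list, 8 were higher, 1, Nes, was lower and 3 did not pass. In that comparison 36.7% of all genes were lower and 24.1% higher. A list of 7 fibroblast markers summed to 22.2 to 48.1 TPM at day 0 and to 108 to 282 TPM at day 4. Thy1, of this list, went the other way in si-CTL cells without rescue. It measured 2.86, 2.96 and 2.85 log2(TPM + 1) at day 0 and 1.81, 1.15 and 1.39 at day 4. In bulk RNA, a lower level in every cell and fewer cells at the higher level cannot be told apart.

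At day 0, most of the glycolytic enzymes among the members were lower in si-Rsl24d1 cells. The transporter Slc2a1 was higher, while Slc2a3, the more abundant of the 2 transporters in si-CTL cells, was lower. A change was called at a limma adjusted p below 0.01 over all 16447 genes. By that rule 7 members fell (16.1% of all genes did) and 1 member rose (14.3% of all genes did), and none differed by more than 1.8-fold, as 4.18% of all genes did. The median difference of the 10 members was -0.34 on the log2 scale against -0.01 over all genes tested. The libraries of the groups did not overlap for any of the 10 members, which also held for 51.1% of all genes. The summed level of the members was 6026 ± 229 TPM in si-Rsl24d1 cells.

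**Figure D1:**
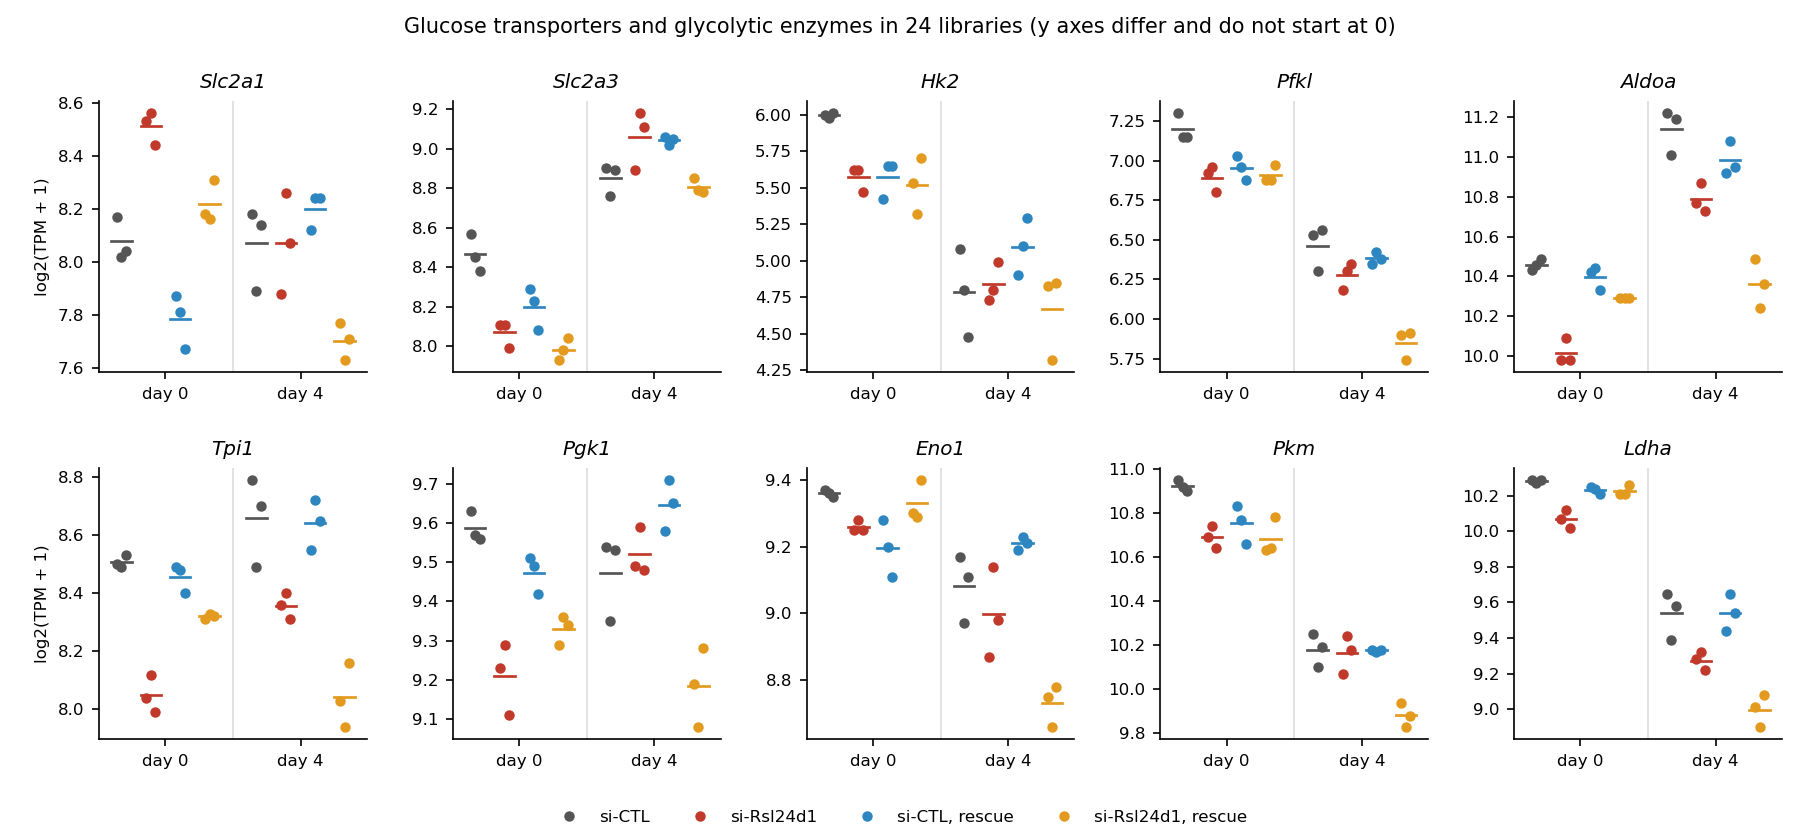
Level of each of the 10 members in log2(TPM + 1) (y axis, a separate range per gene that does not start at 0) in the 24 libraries, grouped by day on the x axis. Points are libraries, horizontal bars are means of 3 libraries and colours are the siRNA and rescue. At day 0 without rescue the si-Rsl24d1 libraries of Slc2a1 lie between 8.44 and 8.56, above the si-CTL libraries, whereas those of Aldoa lie between 9.98 and 10.09, below the si-CTL libraries, and among the day 4 groups the libraries labelled si-Rsl24d1 with rescue have the lowest mean for all 10 genes.

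The transporters moved in opposite directions. Slc2a1 (chr4:119108711-119137983, GRCm38) measured 8.17, 8.02 and 8.04 in si-CTL and 8.53, 8.56 and 8.44 in si-Rsl24d1, and rose by 0.44 (SE 0.08, limma adjusted p = 0.00034). Slc2a3 (chr6:122727809-122801640) measured 8.57, 8.45 and 8.38 in si-CTL and 8.11, 8.11 and 7.99 in si-Rsl24d1, and fell by 0.40 (SE 0.07, limma adjusted p = 6.3e-05). The 2 genes therefore exchanged rank: Slc2a1 took 43.2 ± 0.907% of their summed TPM in si-CTL and 57.6 ± 0.207% in si-Rsl24d1. This is a shift of 14.4 percentage points that showed in every library, with an exact two-sided permutation p = 0.1, the smallest that 3 against 3 libraries can give. Of 8 other tested transporters of hexoses, lactate and pyruvate, 1 fell and none rose, with 3 at an unadjusted limma p below 0.05. It was Slc16a1, the monocarboxylate transporter that carries lactate and pyruvate, at -0.50 (SE 0.08, limma adjusted p = 5.5e-05).

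Of the enzymes that commit glucose to the pathway, Pfkl was called lower and Hk2 was not. Hk2 (chr6:82725025-82774454) measured 6.00, 5.98 and 6.01 in si-CTL and 5.62, 5.62 and 5.47 in si-Rsl24d1. Its difference of -0.43 (SE 0.15) did not pass (limma adjusted p = 0.024), although the libraries did not overlap, and it passed in a fit of these 6 libraries alone (limma adjusted p = 0.00085). Pfkl (chr10:77986947-78010083) measured 7.30, 7.15 and 7.15 against 6.92, 6.96 and 6.80, and fell by 0.30 (SE 0.07, limma adjusted p = 0.0013). This call was lost without si-CTL replicate 1 (limma adjusted p = 0.010) or without si-Rsl24d1 replicate 3 (limma adjusted p = 0.011). The platelet-type phosphofructokinase Pfkp fell further, by 0.91 (SE 0.07, limma adjusted p = 4.2e-09), and the muscle type Pfkm fell by 0.18 (SE 0.05, limma adjusted p = 0.0087). The share of Pfkl among the 3 phosphofructokinases was accordingly 53.5 ± 0.832% in si-CTL and 61.7 ± 0.824% in si-Rsl24d1 (exact permutation p = 0.1).

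Both members at the triose steps fell. Aldoa (chr7:126795234-126800751) measured 10.43, 10.46 and 10.49 in si-CTL and 9.98, 10.09 and 9.98 in si-Rsl24d1, and fell by 0.45 (SE 0.06, limma adjusted p = 6.7e-06). Tpi1 (chr6:124810586-124814296) measured 8.50, 8.49 and 8.53 against 8.04, 8.12 and 7.99, and fell by 0.46 (SE 0.06, limma adjusted p = 8.2e-06). Both correspond to about 0.73 of the si-CTL level. Aldoc, the brain-type aldolase, fell by 0.96 (SE 0.08, limma adjusted p = 1.1e-08), but it held little of the family, since Aldoa took 98.3 ± 0.0876% of aldolase TPM in si-CTL. Gapdh, which joins these steps to the ATP-forming ones, measured 12.10, 12.19 and 12.20 in si-CTL and 12.10, 12.15 and 12.13 in si-Rsl24d1, a difference of -0.03 (limma adjusted p = 0.61).

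At the ATP-forming steps Pgk1 and Pkm fell, and at lactate dehydrogenase Ldha fell. Pgk1 (chrX:106187100-106203699) measured 9.63, 9.57 and 9.56 in si-CTL and 9.23, 9.29 and 9.11 in si-Rsl24d1, and fell by 0.37 (SE 0.06, limma adjusted p = 2.7e-05). Pkm (chr9:59656368-59679375) measured 10.95, 10.92 and 10.90 against 10.69, 10.74 and 10.64, and fell by 0.24 (SE 0.05, limma adjusted p = 0.0011). The gene-level value cannot separate the isoforms of Pkm. Ldha (chr7:46841475-46855627) measured 10.29, 10.27 and 10.29 against 10.07, 10.12 and 10.02, and fell by 0.21 (SE 0.06, limma adjusted p = 0.0074). The Ldha call was lost when any 1 of 5 of the 6 libraries was left out (limma adjusted p from 0.017 to 0.039) and held only without si-Rsl24d1 replicate 2.

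Eno1 (chr4:150236721-150248879) differed by -0.10 (SE 0.06, limma adjusted p = 0.19), from 9.37, 9.36 and 9.35 in si-CTL to 9.25, 9.28 and 9.25 in si-Rsl24d1. Its level is uncertain, because 27.8% of the 31-base words of its transcripts also occur in Eno1b, a near-identical gene listed at 1590 ± 22.9 TPM, and 21.0% occur in the pseudogene Gm4735. With Eno1 and Eno1b summed, an alternative chosen after seeing the data, the difference was -0.08. Pgk1 shares 54.7% of its words with Pgk1-rs7, which was listed at 0 TPM in day 0 si-CTL cells, and Pkm shares 13.4% with Gm49759, at 30.1 TPM.

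Beyond the members, 8 of 16 other tested glycolysis genes fell and none rose at day 0, with 11 at an unadjusted limma p below 0.05 and a median difference of -0.21. Eno3, the muscle enolase, fell by 0.89 (SE 0.08, limma adjusted p = 1.1e-08). Of the 7 genes of the pyruvate dehydrogenase complex and the mitochondrial pyruvate carrier, 4 fell and none rose, with 5 at an unadjusted limma p below 0.05. Pdha1, the catalytic alpha subunit, fell by 0.40 (SE 0.05, limma adjusted p = 5.5e-06). In the pentose phosphate pathway 5 of 9 genes fell and 2 rose, with transketolase, Tkt, falling by 0.68 (SE 0.04, limma adjusted p = 6.2e-11). Of 13 genes of gluconeogenesis and glycogen, 4 rose and 5 fell. Fructose bisphosphatases rose, Fbp2 by 1.64 (SE 0.09, limma adjusted p = 2.7e-11) and Fbp1 by 1.03 (SE 0.13, limma adjusted p = 2.3e-06). Pyruvate carboxylase, Pcx, rose by 0.90 (SE 0.07, limma adjusted p = 4.8e-09). Mitochondrial PEP carboxykinase, Pck2, fell by 1.70 (SE 0.11, limma adjusted p = 1.6e-10).

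The regulators did not move as 1 group at day 0. Of 16 glycolysis regulators, 4 rose and 3 fell. Pdk1, a kinase that inhibits pyruvate dehydrogenase, fell by 0.70 (SE 0.08, limma adjusted p = 2.7e-07). Txnip, which restrains glucose uptake, rose by 0.53 (SE 0.05, limma adjusted p = 1.1e-07). Pfkfb4, which sets the level of an activator of phosphofructokinase, rose by 0.62 (SE 0.11, limma adjusted p = 8.6e-05). Among 8 regulators of the HIF pathway, 2 fell and none rose, with 2 at an unadjusted limma p below 0.05, and Hif1a differed by 0.02. Among 19 HIF targets outside glycolysis, 8 fell and 1 rose, led by Vegfa, an angiogenic growth factor, which fell by 1.14 (SE 0.05, limma adjusted p = 1.7e-13).

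With rescue, the difference between si-Rsl24d1 and si-CTL at day 0 was called for 1 member only. Slc2a1 measured 7.87, 7.81 and 7.67 in si-CTL and 8.18, 8.16 and 8.31 in si-Rsl24d1, and rose by 0.43 (SE 0.08, limma adjusted p = 0.00086), a direction called for 8.1% of all genes. The other 9 members ranged from -0.22 to 0.13, with adjusted p of 0.023 or more. Slc2a3 was the lowest of them, and it was called lower after median-of-ratios scaling, which sets the libraries level at their typical gene (limma adjusted p = 0.00017), after scaling to the protein-coding total (limma adjusted p = 0.0085) and when si-CTL replicate 3 was left out. The median over the members was -0.06 against 0.00 over all genes.

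Whether the siRNA difference itself changed with rescue at day 0 was tested as an interaction. None of the 10 members passed, while 2.09% of all genes were called by the adjusted threshold. At an unadjusted limma p below 0.05 stood 7 members, a looser threshold for which the share of all genes is not given. The interaction ranged from -0.003 for Slc2a1 to 0.37 for Hk2, with the lowest adjusted p, 0.025, for Aldoa at 0.34. Directly within si-Rsl24d1 cells, rescue raised Aldoa by 0.28 (SE 0.06, limma adjusted p = 0.0027) and Tpi1 by 0.27 (SE 0.06, limma adjusted p = 0.0039), and 3.06% of all genes rose. Aldoa measured 9.98, 10.09 and 9.98 without and 10.29 in each library with rescue. Slc2a1 differed by -0.29 (SE 0.08, limma adjusted p = 0.014) without overlap of the libraries, and was called lower after scaling to the protein-coding total (limma adjusted p = 0.0095) and without rescue replicate 3 (limma adjusted p = 0.0094). The calls of Aldoa and Tpi1 were lost without si-Rsl24d1 replicate 1 or 3 or without rescue replicate 1 or 2, when the count was 0. The share of all genes called in these fits is not given. The median difference was 0.04 over the members and -0.11 over all genes. After median-of-ratios scaling, which removes that shift, Eno1, Ldha and Pgk1 were called higher too (limma adjusted p = 0.0034, 0.0037 and 0.0033). The share of all genes higher under that scaling is not given.

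Doxycycline with the rescue vector in si-CTL cells changed none of the members at day 0, while 0.0122% of all genes were called by the adjusted threshold. At an unadjusted limma p below 0.05 stood 6 members, a looser threshold for which the share of all genes is not given. All 10 differences were negative, from -0.047 for Ldha to -0.42 for Hk2, beside an all-gene median of -0.12. Slc2a3 stood at -0.27, Pfkl at -0.24 and Pkm at -0.17. Within si-Rsl24d1 cells, rescue changed Hk2 by -0.06, Slc2a3 by -0.09, Pfkl by 0.01 and Pkm by -0.003. In the main fit, the smaller siRNA difference of these 4 genes under rescue thus went with lower si-CTL levels and not with higher si-Rsl24d1 levels. Aldoa and Tpi1 were instead called higher with rescue in si-Rsl24d1 cells. This split depends on the scaling, because the all-gene median was also -0.11 for rescue in si-Rsl24d1 cells. Median-of-ratios scaling shifted the members by a median of 0.15 in the si-CTL and 0.13 in the si-Rsl24d1 comparison. In the si-CTL comparison the libraries did not overlap for 9 members, against 41.8% of all genes. At day 4 again none passed (10.2% of all genes were called by the adjusted threshold), with a range from -0.16 to 0.31. At an unadjusted limma p below 0.05 stood 5 members. Median-of-ratios scaling then called Aldoa lower by -0.29 (limma adjusted p = 0.0057) and Pfkl lower by -0.21 (limma adjusted p = 0.0068).

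**Figure D2:**
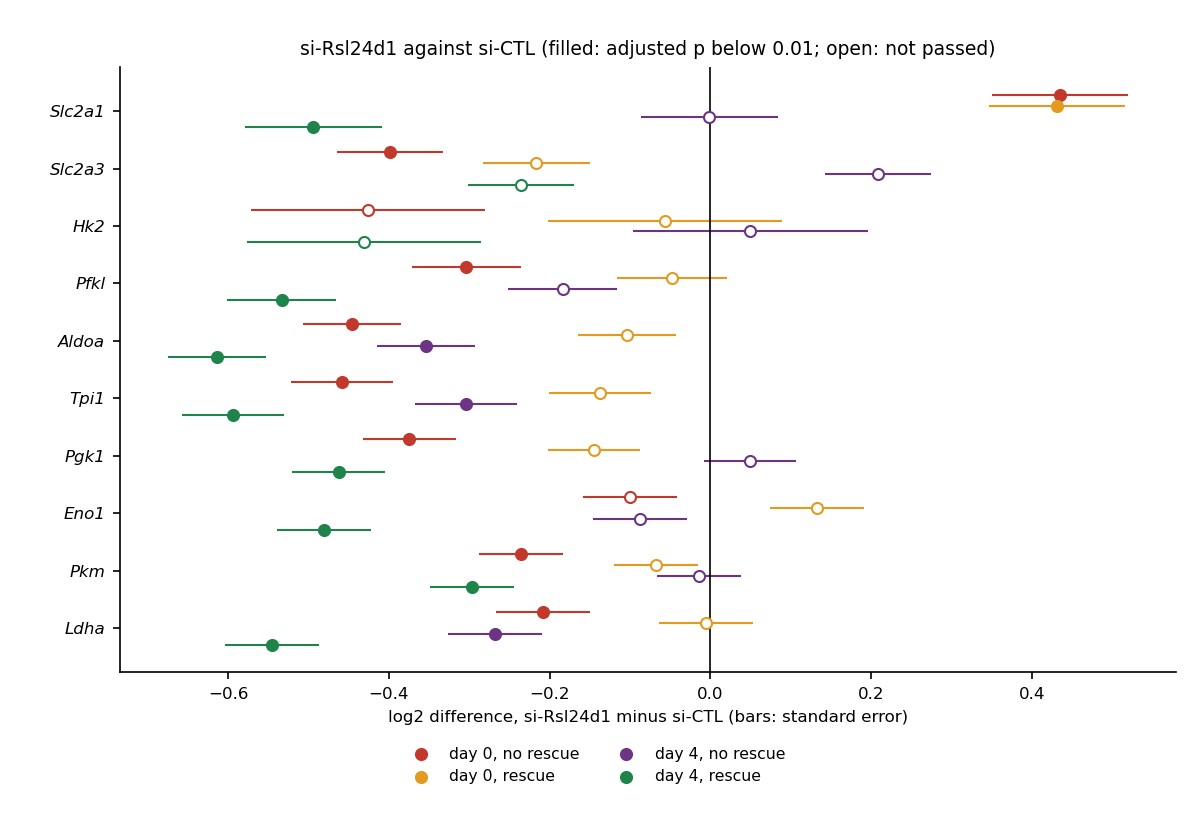
Log2 difference between si-Rsl24d1 and si-CTL libraries (x axis) for each member (y axis) at day 0 and day 4, without and with rescue. Points are differences of means of 3 libraries, bars are standard errors, filled points passed an adjusted p below 0.01 and open points did not. Slc2a1 is at 0.44 and 0.43 at day 0, at -0.001 at day 4 without rescue and at -0.49 at day 4 with rescue, and 8 members are filled at day 4 with rescue.

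At day 4 the libraries labelled si-Rsl24d1 without rescue differed from si-CTL at fewer steps than at day 0, in the main fit. Aldoa measured 11.22, 11.01 and 11.19 in si-CTL and 10.77, 10.87 and 10.73 in the libraries labelled si-Rsl24d1, and fell by 0.35 (SE 0.06, limma adjusted p = 0.00018). Tpi1 fell by 0.30 (SE 0.06, limma adjusted p = 0.00091) and Ldha by 0.27 (SE 0.06, limma adjusted p = 0.0013). These 3 members were lower while 6.04% of all genes were, and the libraries did not overlap for the same count of 3 members, against 48.4% of all genes. The other 7 ranged from -0.18 to 0.21. The median was -0.05 over the members and 0.13 over all genes. With median-of-ratios scaling Eno1, Pfkl and Pkm were called lower too (limma adjusted p = 0.0003, 4.7e-05 and 0.0011). The same scaling ended the Ldha call at day 0 (limma adjusted p = 0.016), so the contrast between the days in the number of steps depends on the scaling. The share of all genes lower under that scaling is not given. In a fit of these 6 libraries alone none passed (limma adjusted p = 0.017 for Aldoa, 0.032 for Tpi1 and 0.037 for Ldha), and the Ldha call was lost without si-CTL replicate 1 (limma adjusted p = 0.012). Summed fibroblast markers were 212 to 282 TPM in the libraries labelled si-Rsl24d1 and 108 to 117 TPM in si-CTL, all 7 markers being expressed in both, and their part in the result was not tested.

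With rescue at day 4, most members were lower in the libraries labelled si-Rsl24d1, although the measured Rsl24d1 level was not. Of the 10 members, 8 fell, whereas 3.53% of all genes fell, and the median was -0.49 over the members and -0.04 over all genes. The groups did not overlap for any member, against 35.6% of all genes. The summed level of the members was 6653 ± 240 TPM in si-CTL with rescue and 4783 ± 251 TPM in the libraries labelled si-Rsl24d1 with rescue, the lowest of the 8 groups. Summed fibroblast markers were 135 to 155 TPM in the first and 172 to 189 TPM in the second group, with all 7 expressed, and their part in the result was not tested.

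The falls reached from uptake to lactate. Slc2a1 measured 8.12, 8.24 and 8.24 in si-CTL with rescue and 7.77, 7.63 and 7.71 in the libraries labelled si-Rsl24d1, and fell by 0.49 (SE 0.08, limma adjusted p = 0.00064). Aldoa measured 10.92, 11.08 and 10.95 against 10.49, 10.24 and 10.36, and fell by 0.61 (SE 0.06, limma adjusted p = 1.1e-06). Tpi1 measured 8.55, 8.72 and 8.65 against 8.03, 7.94 and 8.16, and fell by 0.59 (SE 0.06, limma adjusted p = 3e-06). The libraries did not overlap for any of these 3 genes. Ldha measured 9.44, 9.65 and 9.54 against 9.01, 8.90 and 9.08, and fell by 0.55 (SE 0.06, limma adjusted p = 3.1e-06). Pfkl fell by 0.53 (SE 0.07), Eno1 by 0.48 (SE 0.06), Pgk1 by 0.46 (SE 0.06) and Pkm by 0.30 (SE 0.05), each with an adjusted p of 0.00079 or lower. Hk2 at -0.43 (SE 0.15, limma adjusted p = 0.059) and Slc2a3 at -0.24 (SE 0.07, limma adjusted p = 0.023) did not pass, the latter passing after median-of-ratios scaling (limma adjusted p = 0.0042).

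Fewer of the other genes of the pathway passed at day 4 with rescue. Of 16 other glycolysis genes, 6 fell, none rose and 10 did not pass, with 12 at an unadjusted limma p below 0.05. Of 8 other transporters, 2 fell, none rose and 6 did not pass, with 5 at an unadjusted limma p below 0.05. Slc16a3, the lactate exporter of glycolytic cells, fell by 0.91 (SE 0.10, limma adjusted p = 4.7e-06). Ldhb, the heart-type lactate dehydrogenase subunit, fell by 0.45 (SE 0.04, limma adjusted p = 1.7e-07). Among 19 HIF targets outside glycolysis 9 fell and none rose, with 14 at an unadjusted limma p below 0.05, and Bnip3, a mitophagy receptor, fell by 0.73 (SE 0.10, limma adjusted p = 6.1e-05). Among the HIF regulators only Egln3, an oxygen-sensing prolyl hydroxylase, fell, by 0.83 (SE 0.10, limma adjusted p = 1.6e-05).

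Within the libraries labelled si-Rsl24d1 at day 4, those with rescue were lower than those without for 8 members, from -0.43 for Pfkl to -0.27 for Eno1, whereas 4.23% of all genes fell. Aldoa measured 10.77, 10.87 and 10.73 without and 10.49, 10.24 and 10.36 with rescue (difference -0.42, SE 0.06, limma adjusted p = 0.00018). Rsl24d1 was higher by 0.45 (SE 0.07, limma adjusted p = 0.00032). The count of members lower was 3 without si-Rsl24d1 replicate 2, 4 without rescue replicate 1 and 3 without rescue replicate 2. It was 0 in a fit of these 6 libraries alone, where the Aldoa limma adjusted p was 0.055. The share of all genes lower in these fits is not given, so a change in the members cannot be told from a general loss of calls. Median-of-ratios scaling ended the calls of Eno1 (-0.19, limma adjusted p = 0.012), Ldha (-0.20, limma adjusted p = 0.072) and Tpi1 (-0.23, limma adjusted p = 0.049). This comparison and the one with si-CTL under rescue share the si-Rsl24d1 rescue libraries.

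Tests of the difference between days showed that the siRNA label went with different changes at day 0 and day 4 for several members. Without rescue, the difference at day 4 minus that at day 0 was 0.61 for Slc2a3 (SE 0.09, limma adjusted p = 3.9e-05), 0.42 for Pgk1 (SE 0.08, limma adjusted p = 0.00037) and -0.44 for Slc2a1 (SE 0.12, limma adjusted p = 0.0063). These 3 of 10 members compare with 30.9% of all genes, the same share. The Slc2a1 call was lost in 8 of 12 fits that left out 1 library and in a fit of these groups alone (limma adjusted p = 0.026), and the Pgk1 call after median-of-ratios scaling (limma adjusted p = 0.014). With rescue, 7 members passed, all in the negative direction, whereas 6.83% of all genes did, led by Slc2a1 at -0.93 (SE 0.12, limma adjusted p = 1.6e-05) and Eno1 at -0.61 (SE 0.08, limma adjusted p = 2.6e-05). Pgk1, the weakest of the 7, was lost in 10 of 12 fits that left out 1 library.

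Between day 0 and day 4 of si-CTL cells without rescue, members moved in both directions, in shares close to those of all genes. RA, time in culture and, by the study's methods, the loss of LIF changed together and cannot be told apart. Of the 10 members 2 rose, Aldoa and Slc2a3, while 24.1% of all genes did, and 5 fell, Hk2, Pfkl, Eno1, Pkm and Ldha, while 36.7% of all genes did. The median was -0.20 over the members and -0.10 over all genes. The libraries did not overlap for 8 members, against 72.5% of all genes. The summed level was 6669 ± 488 TPM at day 4 and 7213 ± 77.5 TPM at day 0. Summed fibroblast markers were 38.6 to 48.1 TPM at day 0 and 108 to 117 TPM at day 4, with 5 and 7 of the 7 expressed. Of the 7, 6 were called higher at day 4 and 1, Thy1, lower (-1.44). Their part in the result was not tested.

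Hk2 had the largest fall of the members at day 4. It measured 6.00, 5.98 and 6.01 at day 0 and 5.08, 4.80 and 4.48 at day 4, and fell by 1.21 (SE 0.15, limma adjusted p = 4.2e-07), the only member beyond 1.8-fold in this comparison, as 15% of all genes were. Ldha measured 10.29, 10.27 and 10.29 against 9.65, 9.39 and 9.58 and fell by 0.74 (SE 0.06, limma adjusted p = 1.2e-09). Pfkl and Pkm fell by the same 0.74 (SE 0.07 and 0.05, limma adjusted p = 1e-08 and 1.8e-10), and Eno1 by 0.28 (SE 0.06, limma adjusted p = 0.00029), a call lost after median-of-ratios scaling (limma adjusted p = 0.011). The level at day 4 was thus 0.43 of that at day 0 for Hk2 and 0.60 for Pfkl, Pkm and Ldha.

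Of the triose steps and the first ATP-forming step, Aldoa rose and Tpi1 and Pgk1 did not pass. Aldoa measured 10.43, 10.46 and 10.49 at day 0 and 11.22, 11.01 and 11.19 at day 4, and rose by 0.68 (SE 0.06, limma adjusted p = 6.9e-09), to 2261 ± 169 TPM, the highest of the members at that day. Tpi1 at 0.15 (SE 0.06, limma adjusted p = 0.042) and Pgk1 at -0.11 (SE 0.06, limma adjusted p = 0.086) did not pass. Tpi1 passed as higher without day 4 si-CTL replicate 2 (limma adjusted p = 0.0014) and after median-of-ratios scaling (0.29, limma adjusted p = 0.0011). Slc2a3 measured 8.57, 8.45 and 8.38 against 8.90, 8.76 and 8.89, and rose by 0.38 (SE 0.07, limma adjusted p = 3.8e-05). Slc2a1 differed by -0.01 (limma adjusted p = 0.96), with a direction that turned under both other scalings.

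**Figure D3:**
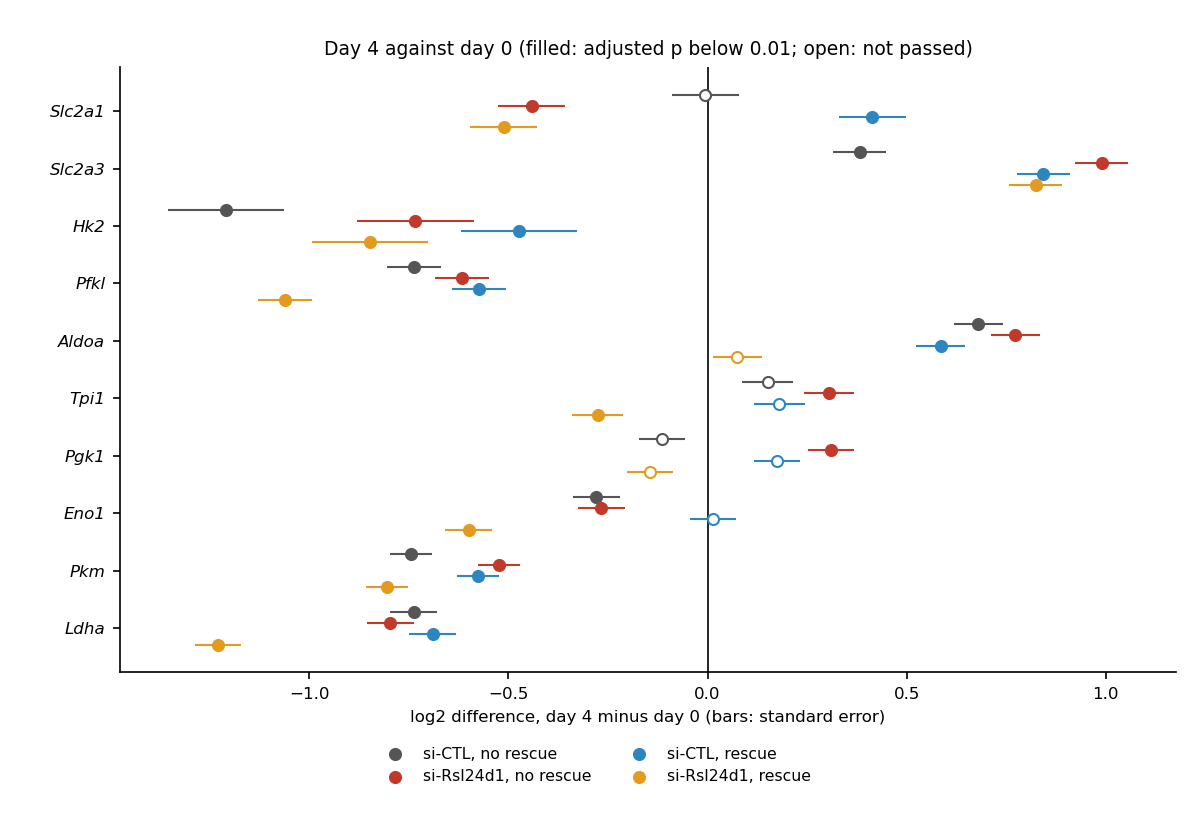
Log2 difference between day 4 and day 0 (x axis) for each member (y axis) in the 4 combinations of siRNA and rescue. Points are differences of means of 3 libraries, bars are standard errors, filled points passed an adjusted p below 0.01 and open points did not. Hk2, Pfkl, Pkm and Ldha lie left of 0 in all 4 combinations and Slc2a3 lies right of 0, from 0.38 to 0.99, while Slc2a1 ranges from -0.51 to 0.41.

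Beside the falls of Hk2, Pfkl and Ldha at day 4, other isozymes rose. Ldhb measured 7.38, 7.41 and 7.40 at day 0 and 9.34, 9.24 and 9.25 at day 4, and rose by 1.88 (SE 0.04, limma adjusted p = 4e-18). The share of Ldha in the summed TPM of Ldha and Ldhb was 88.1 ± 0.219% at day 0 and 54.6 ± 1.64% at day 4, a fall of 33.5 percentage points. Hk1, the housekeeping hexokinase, rose by 0.73 (SE 0.09, limma adjusted p = 7.8e-07), and the share of Hk2 in Hk1 and Hk2 went from 85.5 ± 1.38% to 59.2 ± 5.02%. Pfkm rose by 0.45 (SE 0.05, limma adjusted p = 2.9e-07) and Pfkp differed by 0.07 (limma adjusted p = 0.43), and the Pfkl share went from 53.5 ± 0.832% to 38.6 ± 2.78%. Each of these 3 shares separated all day 4 from all day 0 libraries, at the smallest exact permutation p of 0.1. Aldoa kept 98.3 to 98.9% and Eno1, with the doubt about Eno1b, 93.6 to 97.8% of their families over the 8 group means.

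**Figure D4:**
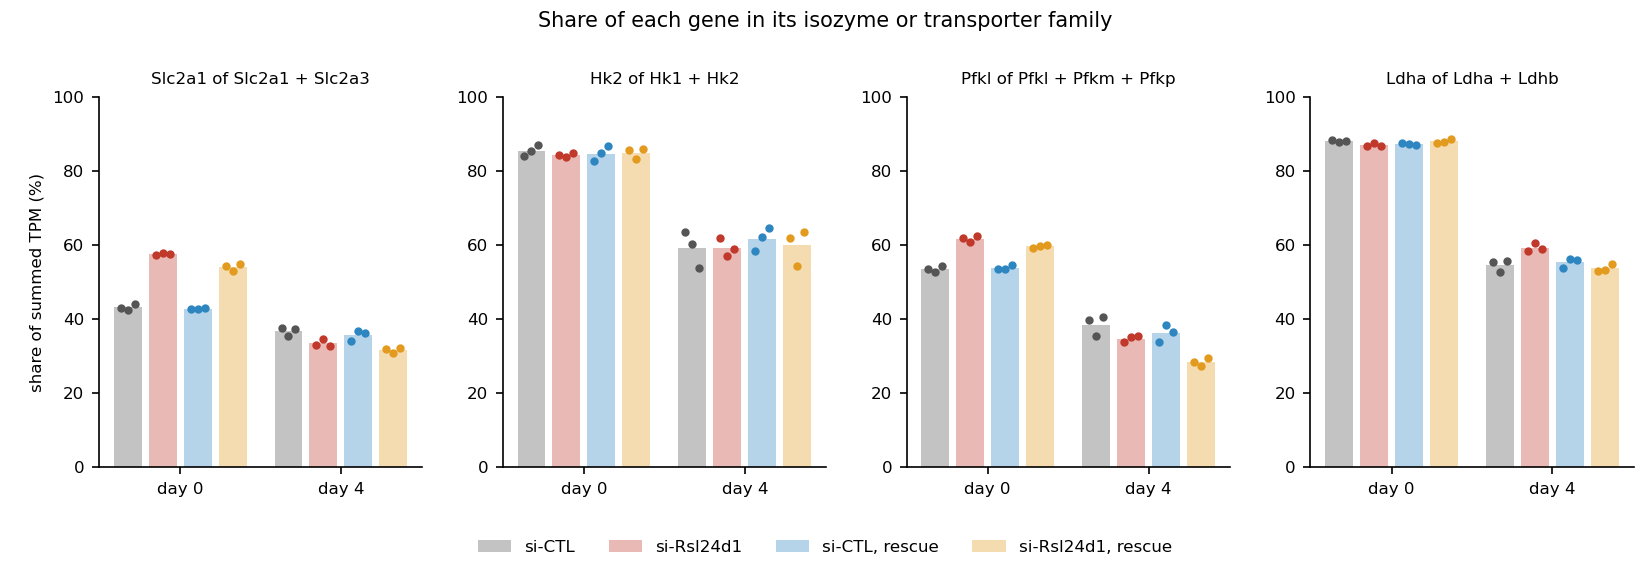
Share of Slc2a1, Hk2, Pfkl and Ldha in the summed TPM of its family (y axis, percent, from 0 to 100) in the 8 groups, arranged by day on the x axis. Bars are means of 3 libraries and points are libraries. The Ldha share is 88.1% in day 0 and 54.6% in day 4 si-CTL cells, and the Slc2a1 share is higher in both day 0 si-Rsl24d1 groups, at 57.6% and 54.0%, than in the day 0 si-CTL groups, at 43.2% and 42.8%.

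In the other 3 combinations the differences between the days had the same direction at several genes. Hk2 fell by 0.73 (SE 0.15) in cells labelled si-Rsl24d1, by 0.47 (SE 0.15) in si-CTL with rescue and by 0.85 (SE 0.15) in cells labelled si-Rsl24d1 with rescue, and the call in si-CTL with rescue was lost when any 1 of day 0 replicates 2 and 3 or day 4 replicates 1 and 2 was left out (limma adjusted p from 0.018 to 0.047). Ldha fell by 0.80, 0.69 and 1.23 (SE 0.06 each) in the same order. Slc2a3 rose by 0.99, 0.84 and 0.82 (SE 0.07 each). Slc2a1 differed between the combinations in sign, falling by 0.44 (SE 0.08) in cells labelled si-Rsl24d1, rising by 0.41 (SE 0.08) in si-CTL with rescue and falling by 0.51 (SE 0.08) in cells labelled si-Rsl24d1 with rescue. Aldoa rose by 0.77 and 0.59 (SE 0.06 each) in the first 2 and differed by 0.07 in the last (limma adjusted p = 0.29). In all, 4 members rose and 6 fell in cells labelled si-Rsl24d1 (29.4% and 26.4% of all genes). In si-CTL with rescue 3 rose and 4 fell (36.8% and 22.4%), and in cells labelled si-Rsl24d1 with rescue 1 rose and 7 fell (32.4% and 25.8%).

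The other lists also moved in both directions between the days in si-CTL cells. Of 16 other glycolysis genes 7 rose and 3 fell, the largest fall being that of Pgam1, a phosphoglycerate mutase, by 0.90 (SE 0.04, limma adjusted p = 8.9e-13). Of the glycolysis regulators 6 rose and 6 fell. The arrestin-domain genes that restrain glucose uptake rose most, Arrdc4 by 1.81 (SE 0.05, limma adjusted p = 1.9e-16) and Txnip by 1.79 (SE 0.05, limma adjusted p = 5.1e-16). In the pentose phosphate pathway 3 rose and 5 fell, with its entry enzyme G6pdx falling by 1.32 (SE 0.05, limma adjusted p = 5.1e-14). Among the genes of gluconeogenesis and glycogen 7 of 13 rose and 5 fell, with Pygl, liver glycogen phosphorylase, rising by 2.92 (SE 0.08, limma adjusted p = 1.7e-16). Of 19 HIF targets outside glycolysis 11 rose and 3 fell, and Hif1a, which encodes the oxygen-regulated subunit, fell by 0.63 (SE 0.08, limma adjusted p = 4.2e-07).

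Over the 8 group means the members fell into patterns, given as a description over 8 groups that share the scaling and, in part, the day. Hk2, Pfkl, Eno1, Pkm and Ldha correlated with each other at Pearson's r from 0.85 to 0.99, all highest in day 0 si-CTL cells without rescue and lowest in the day 4 libraries labelled si-Rsl24d1 with rescue. Aldoa, Tpi1 and Pgk1 correlated with each other at r from 0.68 to 0.89, and Tpi1 and Pgk1 with the first set at r of 0.37 or less. Slc2a3 followed Aldoa (r = 0.80) and ran against Ldha (r = -0.82). Slc2a1 reached at most 0.62, with Eno1. The genes outside all lists whose group means were most like the mean of the 10 standardised members were Ndrg2 (r = 0.94), Hmgn2-ps1 (r = 0.94), Tprgl (r = 0.92), Gm50083 (r = 0.92) and Lipe (r = 0.91).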

How the data were processed

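Per the labels and the study's methods, the authors quantified reads with Salmon (1.4.0 in the submitters' processing notes, which also name STAR 2.7.8a and the human build GRCh38), summarised them to genes and deposited log2(TPM + 1) values. TPM keep no library size, so depth is unknown and no count test was possible. The sources conflict on the library kit, the medium, LIF during RA treatment and 48 or 72 h of siRNA. GRCm38 coordinates are from the reference annotation (gencode vM21).

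Group means over all 24 libraries were fitted with limma 3.58.1 (R 4.3.3, intensity trend, two-sided, Benjamini-Hochberg) for every gene averaging 0.5 or more over the libraries. The fit was tested on simulated data. Differences are on the log2(TPM + 1) scale and understate low genes. Replicates are described as independent. Their numbers did not pair libraries: residuals of same-numbered libraries correlated at -0.02 on average, over 0.1 in 4 of 84 pairs. Counts at an unadjusted limma p below 0.05 are a description, given without the share of all genes at that threshold. Isozyme shares were compared by exact permutation. Named genes were the members, their isozymes and, in each other list, at most 3 genes in each direction with the largest change among those that passed without overlap. Gapdh and Hif1a at day 0 fall outside this rule and were chosen after their values were seen. The members and lists were chosen with earlier results of these data known. Alternatives were another amount added to the TPM, other filters and scalings, no trend, a replicate block, the compared groups alone and 1 library left out.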

Additional observations from a re-analysis of the deposited data

Results flagged for a closer look

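The difference between si-Rsl24d1 and si-CTL libraries differed between day 0 and day 4 for several members, by the limma test of that difference. Without rescue the day 4 difference minus the day 0 difference was 0.61 for Slc2a3, 0.42 for Pgk1 and -0.44 for Slc2a1. These 3 of 10 members match the 30.9% of all genes that passed the same test. The Slc2a1 call was lost in 8 of the 12 fits that left out 1 library and that of Pgk1 after median-of-ratios scaling (limma adjusted p = 0.014). With rescue it was -0.93 for Slc2a1, -0.61 for Eno1, -0.54 for Ldha, -0.51 for Aldoa, -0.49 for Pfkl, -0.46 for Tpi1 and -0.32 for Pgk1. By the same test 6.83% of all genes were called in that direction. The Pgk1 value, with an adjusted p of 0.0099, was lost in 10 of the 12 fits that left out 1 library. The measured Rsl24d1 level was lower in si-Rsl24d1 cells at day 0 and not at day 4.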

How the results depend on the processing

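Of the 64 differences of single genes followed as called, none changed sign. Over fits that left out 1 library 388 such values kept the call and 56 lost it, and over the other alternatives 544 kept it and 36 lost it. The largest group of losses, 13, came with the fit of only the groups compared. That fit takes the spread from those groups alone, whereas the main fit shares 1 estimate over all 8 groups. The spread differed between groups: Ldha had an SD of 0.135 in day 4 and 0.013 in day 0 si-CTL libraries without rescue. The same fit added 2 calls, Hk2 for the siRNA at day 0 without rescue and Slc2a3 for the siRNA at day 4 with rescue. Among the values not called, the day 4 difference of Slc2a1 in si-CTL cells turned to 0.14 after median-of-ratios scaling, to 0.028 after protein-coding scaling and ranged from -0.059 to 0.082 with 1 library left out (above 0 without day 0 replicate 1 or day 4 replicate 2), and that of Pgk1 turned to 0.027 after median-of-ratios scaling. Median-of-ratios scaling shifted the members by 0.14 on the log2 scale in day 4 against day 0 si-CTL cells, by -0.16 in the day 4 siRNA comparison without rescue and by 0.13 for rescue in si-Rsl24d1 cells at day 0. It called 2 members in the day 0 siRNA comparison with rescue, as did protein-coding scaling, 5 for rescue in si-Rsl24d1 cells at day 0, 6 in the day 4 siRNA comparison without rescue and 2 for doxycycline at day 4. The fit of only the groups compared called 0 in the day 4 siRNA comparison without rescue and 0 for rescue at day 4. With 1 library left out, the count ranged from 0 to 3 for rescue at day 0, from 3 to 9 for rescue at day 4 and from 1 to 2 for the siRNA at day 0 with rescue. A replicate block, for numbers that did not pair the libraries, gave 7 calls in place of 8 for the siRNA at day 0 and 6 in place of 8 for rescue at day 4. These counts under other settings are given beside the main counts only, without the share of all genes called under the same setting. Depth is unknown, so the precision rests on 3 libraries per group.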
